A study of Arabidopsis thaliana with 8 samples.

Results

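The block of plates TA37 to TA51 is a stretch of low values on a tiling array of Arabidopsis thaliana chromosome 4. A tile is an array spot named by its plate set, plate number and well of a 96-well plate, and these names order the tiles. The table listed 1352 tiles on the 15 plates, and 1339 of them held values in all 4 replicates, which is 6.29% of the 21285 such tiles on the array. The other 13 tiles were blank in every replicate, a share of 0.962% against 2.19% over the whole array. Plates TA38 and TA39 had 62 and 42 tiles listed, and the other 13 plates had 96 each. The plates were picked because their values were low in these same 4 replicates, so the level of the block is a description and carries no test.

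The arrays carried DNA from chromatin immunoprecipitation (ChIP), in which an H3K4me2 antibody pulls down nucleosomes whose histone H3 bears 2 methyl groups on lysine 4. All samples formed 1 group: untreated whole seedlings of accession Col-0, 10 days old, grown in liquid culture. In each replicate the immunoprecipitated (IP) DNA and the input DNA were compared on a pair of arrays with the dyes exchanged. The IP DNA of replicate 1 carries seedling batch label 1 and that of replicates 2, 3 and 4 carries label 2, while the inputs carry labels 1 to 4. The IP samples of replicates 2, 3 and 4 share a seedling batch label, and the labels do not say what a batch is, so part of the spread between replicates may be technical. Replicates 1 and 2 share numbers in their titles, taken here as slide numbers, and replicates 3 and 4 share others. The table names no gene, so the tissue could not be checked against marker genes, and cells of all seedling organs are mixed.

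H3K4me2 is found mostly over genes, in open chromatin. Silent chromatin rich in transposons and repeats, which in Arabidopsis lies mainly around the centromeres and in a knob of chromosome 4, carries little of it. The tile names give neither a position nor a gene nor a sequence, so the block was not placed on the chromosome. The labels do not settle the direction of the ratio of IP and input either. Low and high below therefore refer to the deposited sign, with each replicate centred so that the median tile of the array is 0. The values were taken as log2, although the log base is not stated.

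The whole block lay far below the median tile in each replicate. The median log2 ratio of its tiles was -2.48 in replicate 1, -1.83 in replicate 2, -2.55 in replicate 3 and -1.87 in replicate 4, a mean of -2.18 ± 0.39 (SD, n = 4). This corresponds to a ratio 4.54-fold below that of the median tile, if the scale is log2. The tiles outside the block had medians between 0.10 and 0.12 in the 4 replicates, and the TA tiles outside the block had a median of -0.25 ± 0.02. Replicates 1 and 3 were lower in the block than replicates 2 and 4. The 4 medians outside it were within 0.02 of each other. The centring largely fixes that closeness, since most of the tiles that set it lie outside the block.

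**Figure D1:**
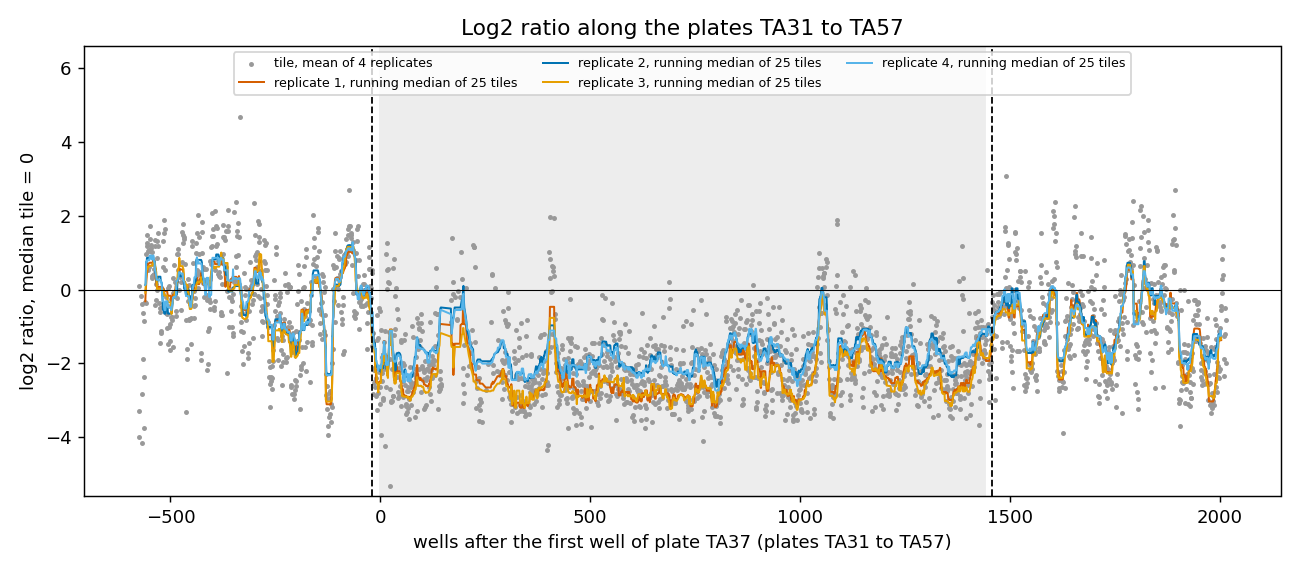
Log2 ratio of the tiles on plates TA31 to TA57 against their distance in wells from the first well of plate TA37; grey points are means of 4 replicates, lines are running medians of 25 tiles in each replicate, and shading marks TA37 to TA51. The lines drop at the left dashed line, 19 wells before the block's first plate, stay mostly between -1 and -3 with a few narrow peaks, and climb at the right dashed line, 17 wells past its last plate.

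Almost every tile of the block shared the low level. Of the 1339 tiles, 1256 (93.8%) were below 0 in all 4 replicates, 39 were above 0 in all 4, and 44 had mixed signs. A value below -1 in all 4 replicates was found for 1047 tiles, or 78.2%, against 17.2% of the tiles outside the block. In limma, fitted across all tiles with Benjamini-Hochberg adjustment, 1252 block tiles were below the median tile at an adjusted p under 0.05, where 41.9% of all tiles were called below. A further 39 were above it, where 42.1% of all tiles were called above. In either direction 1291 block tiles (96.4%) were called, against 84.0% of all tiles. Since the block was picked on this same contrast, these counts describe it and support nothing further.

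The plates inside the block were alike in level. Plate TA44 had the lowest median, with -2.85, -2.11, -2.89 and -2.18 in replicates 1 to 4 and a mean of -2.51 ± 0.42. Plate TA48 had the highest, with -1.74, -1.51, -1.80 and -1.57 and a mean of -1.66 ± 0.14. The other 13 plates lay between these, from -2.48 on TA43 to -1.84 on TA46. Differences of plate means accounted for 6.53% of the variance of the tile means in the block, against 36.7% for all tiles outside it, which run over many more plates. In stretches of more similar length the share was 13.2% on TC17 to TC30, 9.66% on TA21 to TA30, 11.95% on TA31 to TA36 and 1.66% on TA52 to TA56, so the block lay within their range. Picking plates that are all low also bears on this share. Most of the variance of the block thus lay between wells of the same plate. Neither border plate stood out, with -2.27 ± 0.31 on TA37 and -2.14 ± 0.44 on TA51.

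**Figure D2:**
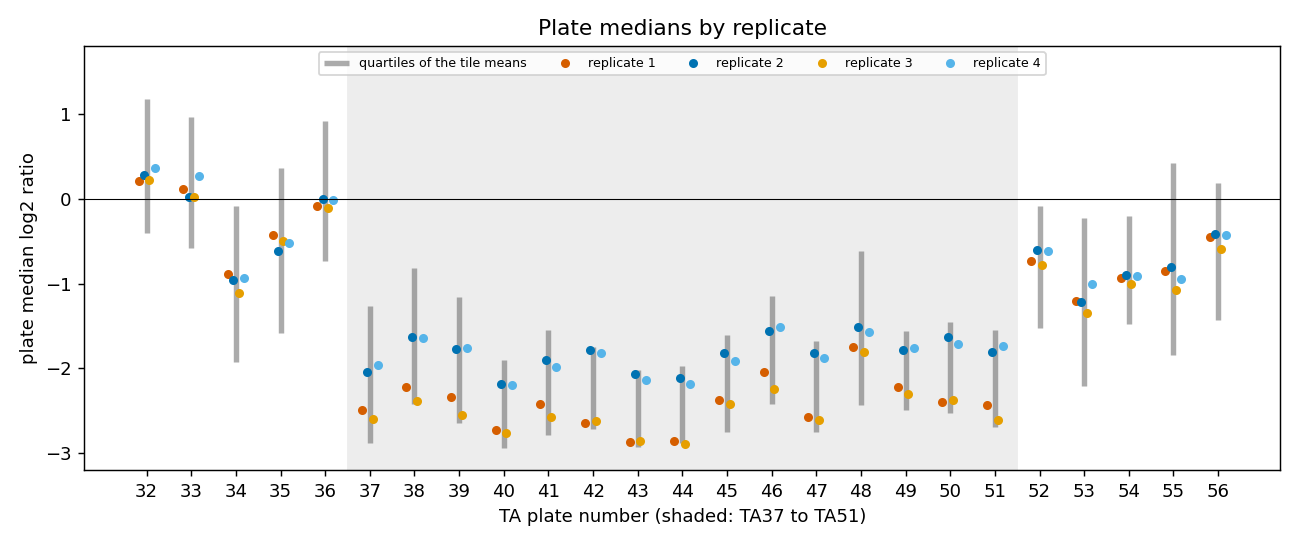
Median log2 ratio of each plate from TA32 to TA56 in 4 replicates (points), with the quartiles of the tile means (grey bars) and the block shaded. All 15 block plates sit between -1.5 and -2.9 in every replicate, and the 5 plates on either side sit above them.

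The spread around the block's level was narrower than over all tiles outside it pooled, but not narrower than on TC17 to TC30. The interquartile range of the block tiles was 1.31, 1.19, 1.30 and 1.17 in replicates 1 to 4, a mean of 1.24 ± 0.07, against 1.82 ± 0.09 for the tiles outside it and 1.17 ± 0.03 on TC17 to TC30. The narrowest plates were TA43 and TA44, with an interquartile range of the tile means of 0.91 each. The widest was TA48, with 1.82, where the upper quartile of the tile means was -0.61. Plates TA37 and TA38, next in width, had 1.61 and 1.60. The widest ranges were thus on TA37 to TA39 at the start of the block and on TA48 near its end, with narrower plates between and after them.

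Set beside the array's other long runs of low plates, the block resembled TC17 to TC30 more than TA21 to TA30. Plates TC17 to TC30 had a median of -2.24 ± 0.40, an interquartile range of 1.17 ± 0.03, and 4.14% ± 1.31 of tiles above 0. The block had 4.54% ± 0.65 of tiles above 0. On plates TA21 to TA30 the median was -2.06 ± 0.22, with an interquartile range of 1.83 ± 0.27, and 13.2% ± 0.49 of tiles above 0. All 3 runs were picked on these values, so their differences were not tested.

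**Figure D3:**
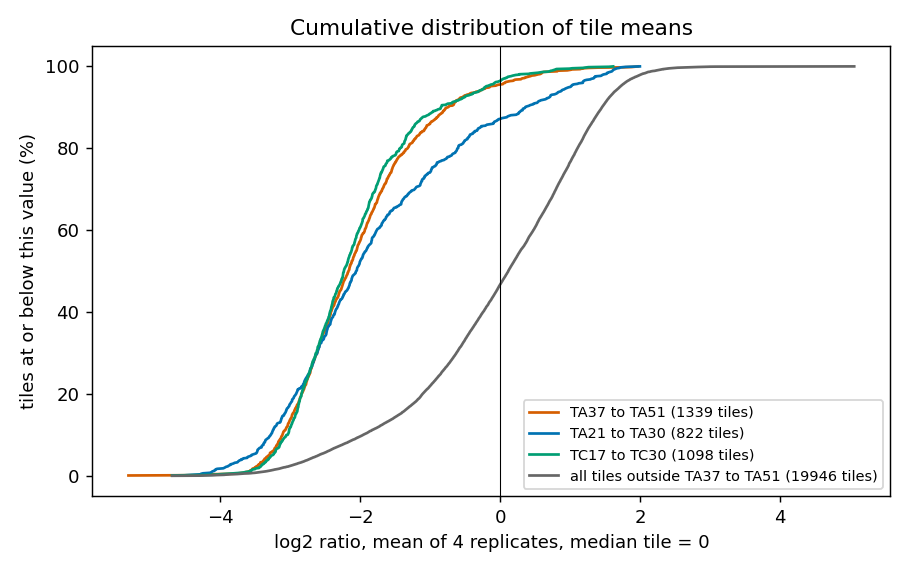
Cumulative share of tiles against the mean log2 ratio of 4 replicates for TA37 to TA51, TA21 to TA30, TC17 to TC30 and all tiles outside the block. The curves of TA37 to TA51 and TC17 to TC30 run together and cross 0 close to their top, with 4.54% and 4.14% of tiles above it on average over the replicates, while TA21 to TA30 keeps a longer tail above 0.

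The lowest tile of the block was TA37C01, with -5.06, -5.44, -5.38 and -5.36 in replicates 1 to 4 and a mean of -5.31 ± 0.17. TA41B03 followed with -4.76, -3.80, -4.83 and -3.96, a mean of -4.34 ± 0.53. TA37B01 had -4.31, -4.14, -4.23 and -4.30, a mean of -4.24 ± 0.08. TA37C01 and TA37B01 are the row starts of the block's first plate, and their replicates were close together, while in TA41B03 replicates 1 and 3 were lower than 2 and 4. Tiles this low were rare, since 5% of the block tiles had a mean below -3.30.

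The highest tiles lay in short runs inside the low surroundings. TA41B10 had 1.74, 2.31, 1.72 and 2.11 in replicates 1 to 4, a mean of 1.97 ± 0.29. TA41C06, a few wells on, had 1.91, 2.02, 1.97 and 1.82, a mean of 1.93 ± 0.09. TA48C10 had 1.93, 2.25, 1.27 and 2.09, a mean of 1.88 ± 0.43. Each of these tiles was above 1 in every replicate. TA41B10 and the very low TA41B03 were 7 wells apart on the same row.

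The 39 tiles above 0 in all replicates formed 18 runs of consecutive measured wells on 7 plates. Of these runs, 10 held a single tile and 7 held 3 or more. The longest had 5 tiles and occurred 2 times, from TA41C03 to TA41C07 and from TA47H10 to TA48A02. In the first, the means went from 0.36 at TA41C07 to 1.93 at TA41C06. In the second, all 5 tiles were close to each other, between 0.31 at TA47H12 and 0.59 at TA47H10, and the run crossed from one plate to the next. On plate TA48, 10 tiles were above 0 in all replicates, and on TA41 there were 9. On 8 of the 15 plates there was none.

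In 1 short run above 0, from TA39C06 to TA39C10, the replicates were far apart at some tiles. TA39C06 had 0.38, 2.10, 0.25 and 2.07 in replicates 1 to 4, and TA39C07 had 0.20, 1.91, 0.45 and 2.02. Both tiles were above 0 throughout, but replicates 2 and 4 were far above replicates 1 and 3. TA39C09 had 0.54, 1.56, 0.85 and 1.66, and in TA39C10 the replicates were closer, with 0.37, 0.63, 0.62 and 0.83. Low tiles could be split as widely, such as TA40A11 with -3.40, -1.39, -3.07 and -1.37. The run and TA40A11 were chosen after their values were seen, and the naming rule covers neither.

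Between the peaks the block held long unbroken low stretches. The longest stretch below 0 in all 4 replicates had 153 measured tiles, from TA44E04 to TA46B01. Its tiles had a median of -2.18, and its highest tile mean was -0.28, at TA45H08. The next stretches had 133 tiles, from TA42G02 to TA44B03, and 116 tiles, from TA46F02 to TA47G09. With the stricter limit of -1 in all replicates the longest had 41 tiles, from TA45A09 to TA45E01. The running median over 25 tiles was lowest at TA45C07, with -2.91, and highest at TA47H08, with 0.08. Both are running medians of the tile means, and taken in each replicate alone the one at TA47H08 was -0.25, 0.04, -0.11 and -0.07 in replicates 1 to 4, all below that of the means. It exceeded -1 at 50 of the 1339 tiles, or 3.73%.

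Neighbouring wells resembled each other over a short distance. Across 1299 pairs of block tiles in consecutive wells the correlation of the tile means was 0.54, and it was 0.31 at 3 wells, 0.13 at 6 wells and 0.08 at 12 wells. At 96 wells, a whole plate apart, it was 0.01. Outside the block these correlations were 0.73, 0.50, 0.43 and 0.36 for the first 4 distances and 0.26 at 96 wells, but those values include differences between plates. With plate medians subtracted the correlation at 1 well was 0.52 in the block and 0.59 outside it, and on TC17 to TC30 it was 0.53 before that subtraction and 0.46 after it. The median size of the step between neighbours was much the same, at 0.54 in the block and 0.53 outside. These are correlations across tiles that share arrays and are not independent, so no p is given.

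The pattern within the block recurred between replicates. Replicates 1 and 3 had a correlation of 0.976 across the 1339 tiles, and replicates 2 and 4 one of 0.977. For the other 4 pairs it lay between 0.856 and 0.883. The same pairs gave 0.982, 0.987 and 0.928 to 0.936 outside the block, where the range of values is wider. Much of the tile-to-tile variation in the block was thus shared by the replicates.

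The block began before its first plate. In the search over 5 plates on each side of the border, the break in the tile means that best divided the stretch into 2 levels fell between TA36G05 and TA36G06, which is 19 wells before plate TA37. TA36G06, on the low side, had -1.43, -1.42, -1.71 and -1.58 in replicates 1 to 4, and TA36G05 had 0.38, 0.41, 0.47 and 0.59. The median was -2.24 after the break and -0.08 before it, a step of -2.16 (after minus before). All 4 replicates, taken alone, put the break at the same well, with steps of -2.46, -1.82, -2.52 and -1.92 in replicates 1 to 4.

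At the plate border itself, the first tile inside was TA37A01, with -3.15, -2.95, -3.22 and -3.11 in replicates 1 to 4, and the next, TA37A02, had a mean of -1.09 ± 0.10. The last tile outside was TA36H12, with -0.49, -0.62, -0.62 and -0.55, and the tile before it, TA36H11, had a mean of -2.65 ± 0.14. Levels on both sides of this border were mixed, and no single step lay there. By plate row the median was 0.55 ± 0.11 in row D of TA36, -1.34 ± 0.17 in row G and -2.26 ± 0.24 in row H. Row A of TA37 had -2.27 ± 0.14. Row B of TA37 returned to -0.08 ± 0.16 and row C fell back to -2.42 ± 0.13, so a run of high tiles lay just inside this edge.

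The far end was less sharp. The best break in the tile means fell between TA52B05 and TA52B06, which is 17 wells past plate TA51, with a median of -1.999 before it and -0.76 after it, a step of 1.24 (after minus before). TA52B05 had -1.64, -1.43, -1.66 and -1.32 in replicates 1 to 4, and TA52B06 had -0.70, -0.55, -0.82 and -0.95. Replicates 1 and 3 alone gave the same well. Replicate 2 alone gave a break 5 wells before the end of TA51 and replicate 4 alone a break 11 wells before it, and the tile means searched over 8 plates on each side gave one 24 wells before it, between TA51F12 and TA51G01. The position of the far edge thus depended on the replicate and on the stretch searched.

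The tiles at the end of the last plate differed between replicates. TA51H12, the last tile inside, had -2.79, -0.998, -2.51 and -1.08 in replicates 1 to 4, and TA51H11 had a mean of -1.25 ± 0.70. TA52A01, the first tile outside, had -2.53, -1.06, -2.35 and -0.92, and TA52A02 had a mean of -1.47 ± 1.02. In TA51H12 and TA52A01 replicates 1 and 3 were near their medians over the block, and replicates 2 and 4 were well above theirs. By plate row the median was -2.63 ± 0.49 in row A of TA51, -1.31 ± 0.24 in row G and -1.37 ± 0.27 in row H. Rows A and B of TA52 had -1.61 ± 0.75 and -1.26 ± 0.12, and row E of TA52 was the first above 0, at 0.67 ± 0.09. The level did not stay there, with -1.13 ± 0.20 in row F, 0.37 ± 0.20 in row G and -0.93 ± 0.12 in row H.

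**Figure D4:**
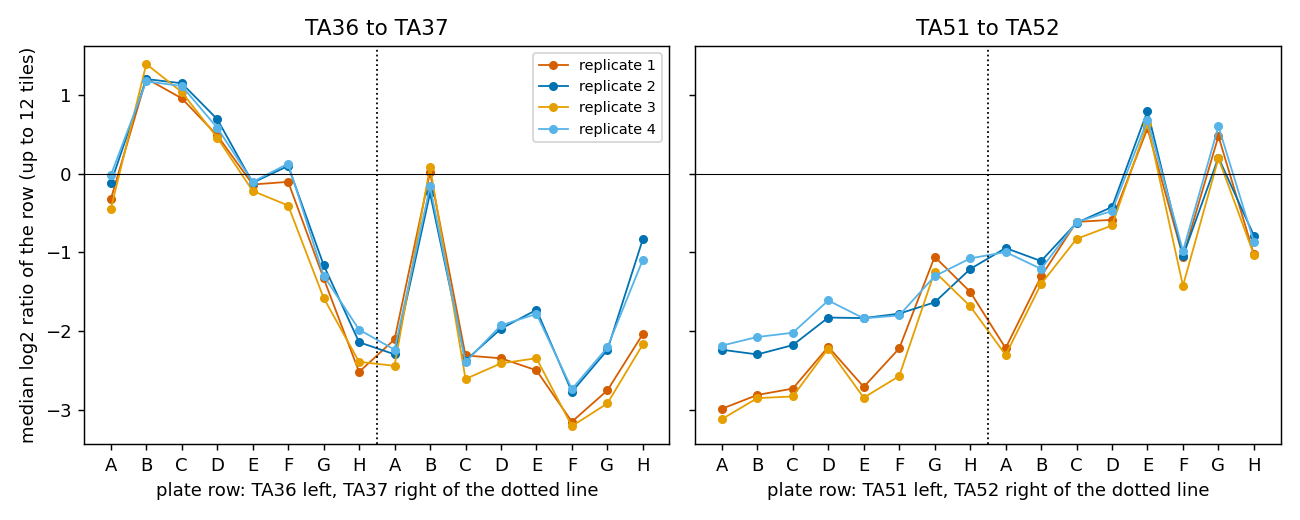
Median log2 ratio of each row of up to 12 wells across both plate borders of the block, in 4 replicates; the dotted line marks the border. At TA36 to TA37 the 4 lines fall together within rows G and H of TA36. At TA51 to TA52 the climb is uneven, with replicates 1 and 3 below replicates 2 and 4 in rows A to F of TA51. In row G of TA51 they are above them, with -1.05, -1.63, -1.25 and -1.30 in replicates 1 to 4. From row H into row A of TA52 replicates 1 and 3 are below again.

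The replicates were further apart in the block than over all tiles outside it pooled, though not further than on TC17 to TC30. The SD between the 4 replicates of a tile had a median of 0.38 in the block, with quartiles of 0.20 and 0.56, and of 0.21 outside it, with quartiles of 0.14 and 0.32. It was 0.43 on TC17 to TC30, with quartiles of 0.24 and 0.60, and 0.25 on TA21 to TA30. With each replicate centred on its block median the block's value was 0.24, so part of the spread was an offset between replicates. Replicate 1 minus replicate 2 had a median of -0.59 in the block and -0.04 outside it. Replicate 3 minus replicate 4 had a median of -0.61 in the block and -0.03 outside it. Replicate 1 minus replicate 3 was 0.06 in the block and -0.02 outside, and replicate 2 minus replicate 4 was 0.02 in both. The values near 0 outside follow largely from the centring, which is set mostly by those tiles. The size of the offset in the block depends on it too. For replicate 1 minus replicate 2 it was -1.22 as deposited and -0.23 after quantile normalization. Replicate 1 was below replicate 2 in 1065 of the 1339 tiles, and replicate 3 was below replicate 4 in 1174. Each of these comparisons is within 1 slide pair, so the offset was present on both.

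Among tiles of the same level, both differences were more negative in the block than outside it, by an amount that depended on the tiles compared. For the 669 block tiles between the block's quartiles, with means from -2.72 to -1.54, replicate 1 minus 2 had a median of -0.71 and replicate 3 minus 4 of -0.68. All 1945 tiles outside the block with means in the same range had medians of -0.24 and -0.35, a gap of block to outside of -0.47 and -0.32. Outside the block and outside TA21 to TA30 and TC17 to TC30, the 1049 remaining tiles had medians of -0.01 and -0.17, a gap of -0.70 and -0.51. After quantile normalization, which gives all replicates 1 distribution, the block had -0.26 and -0.20 and the tiles outside the 3 runs had 0.34 and 0.29, so outside them the sign was opposite, and the gap was -0.60 and -0.48. Plates TC17 to TC30 had offsets of -0.67 and -0.69 over all their tiles, and TA21 to TA30 of -0.18 and -0.23. These differences between parts of the array were not tested.

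The offset varied along the block, and both slide pairs varied together. It was largest on TA43 for replicate 1 minus 2, at -0.85, and on TA44 for replicate 3 minus 4, at -0.79. Plate TA50 had -0.83 and -0.78. It was smallest on TA37 and TA48 for replicate 1 minus 2, at -0.23 and -0.26, and on TA48 for replicate 3 minus 4, at -0.26. The sign was the same on all 15 plates for both differences, but this was not particular to the block. On the 5 plates on either side, replicate 3 minus 4 was also negative, from -0.08 on TA55 to -0.28 on TA52. Replicate 1 minus 2 was negative there too, except on TA33 (0.13) and TA34 (0.04), with -0.24 on TA36 and -0.20 on TA52. Across the 1339 tiles the correlation of replicate 1 minus 2 with replicate 3 minus 4 was 0.81, and neighbouring wells had a correlation of 0.51 for the first difference and 0.43 for the second. For replicate 1 minus 3 and replicate 2 minus 4 the neighbour correlations were 0.13 and 0.14.

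**Figure D5:**
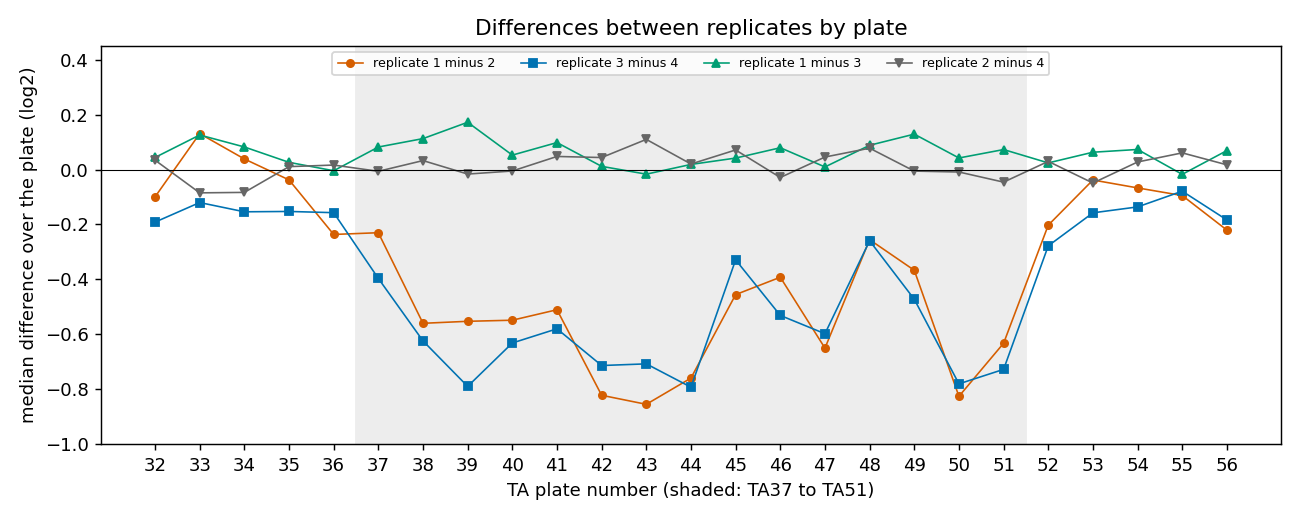
Median difference over each plate from TA32 to TA56 for 4 pairs of replicates, with the block shaded. Replicate 1 minus 2 and replicate 3 minus 4 lie between -0.23 and -0.85 in the block, on most of its plates lower than outside. Replicate 1 minus 2 on TA37 (-0.23) is no lower than on TA36 (-0.24). Replicate 3 minus 4 on TA48 (-0.26) is no lower than on TA52 (-0.28). Replicate 1 minus 3 and replicate 2 minus 4 stay within 0.2 of 0 on every plate.

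The offset also depended on the level within the block. In the 335 block tiles with the highest means, above -1.54, replicate 1 minus 2 had a median of -0.21 and replicate 3 minus 4 of -0.33. In 3 lower groups of 334 or 335 tiles both lay between -0.64 and -0.72. The highest tiles of the block thus varied less between replicates than the others, with a median SD of 0.27 against 0.41 to 0.42. These groups were cut on means of the same replicates whose differences are compared, so the dependence is a description and was not tested.

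Over all replicates, no block tile passed the threshold between the slide pairs, which were assumed from numbers in the titles. Replicates 3 and 4 minus replicates 1 and 2, the slide pairs, gave 0 block tiles in limma at an adjusted p below 0.05 (0.0% of all tiles called) and 2 (0.149%) at an unadjusted p under 0.05, against 0.132% of all tiles. Replicates 2, 3 and 4 minus replicate 1, the IP chromatin labels, also gave 0 (0.0% of all tiles called), with 13 block tiles (0.971%) at an unadjusted p under 0.05 against 2.12% of all tiles. Here replicate 1 is a lone sample assumed to vary like the others, and the error comes wholly from the other arm. Without replicate 3 the limma comparison gave 808 block tiles (60.3%), where 35.2% of all tiles were called, 771 of them higher in replicates 2 and 4 (23.4% of all tiles) and 37 lower (11.8% of all tiles). The error then comes from replicates 2 and 4 alone, so the count of 0 rests on replicate 3, which lay with replicate 1. In both comparisons the offset described above falls inside an arm and enlarges the error, so neither comparison shows that its groups were alike.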

How the data were processed

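Per the labels, H3K4me2 ChIP and input DNA were amplified, labelled directly with Cy3 and Cy5 and hybridised as dye swaps on 8 arrays. The deposited values are log ratios, taken here as log2; how they were scanned, corrected and normalized is not stated in the labels. Both arrays of a swap hold identical values, so n = 4. The main fits treat these replicates as independent, although replicates 2, 3 and 4 share an IP seedling batch label. Of 21800 rows, 21761 are named by plate and well and 21285 hold values in all replicates. Precision is limited by the number of arrays.

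Each replicate was centred on the median of the 21285 tiles. Tiles were fitted with limma 3.58.1 in R 4.3.3 (lmFit, eBayes, two-sided, Benjamini-Hochberg over all tiles, threshold 0.05), tested on simulated data. Edges minimise absolute deviations around 2 medians. Other steps used Python 3.11.15, numpy 2.4.6, pandas 2.3.3, scipy 1.17.1 and matplotlib 3.10.9. The members, lists and alternatives were chosen with earlier results of these data known. Named tiles are the 3 lowest and 3 highest with 1 sign in all replicates, the 2 tiles on each side of both block ends, the tiles beside both edges, and the lowest and highest of the longest run above 0 (the first of 2 equal runs).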

Additional observations from a re-analysis of the deposited data

Results flagged for a closer look

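Among 70 results with a value in each replicate, 3 had 1 replicate apart from the rest by Dixon's test. Chance gives 1 in 20 only for unrelated results and replicates that vary alike. Here the results overlap and replicates 1 and 3 split from 2 and 4, so the count cannot be set against that rate. All 3 are rows of wells just outside the block. In row C of plate TA52 the gap was 0.944 of the range, with medians of -0.61, -0.62, -0.83 and -0.62 in replicates 1 to 4. In row B of plate TA36 it was 0.833, with 1.21, 1.20, 1.39 and 1.17. In row F of plate TA52 it was 0.832, with -1.06, -1.05, -1.42 and -0.98. In each the replicate apart was replicate 3. None of the block's own medians, plates or named tiles passed, but a split of 2 replicates from 2 cannot be seen by this test.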

How the results depend on the processing

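Centring sets the level. As deposited, centred on the mode and centred on the TA tiles, the block median was -2.78, -3.03 and -1.68, plate TA44 had -3.10, -3.35 and -2.01, and plate TA48 had -2.25, -2.50 and -1.16. Block tiles called above 0 then numbered 8, 7 and 70, where 19.3%, 17.2% and 55.5% of all tiles were. The reference is then the deposited 0, the mode and the median TA tile, in that order. Against the median tile of the array, 39 were called above, where 42.1% of all tiles were, and 13 at 1.5-fold or more, where 25.9% were. As deposited and on the mode, TA36G05 became -0.13 and -0.38, and TA41C07 -0.23 and -0.48. Replicate 1 minus 2 was -1.22 as deposited, -0.30 on the mode and -0.23 after quantile normalization; replicate 3 minus 4 was -0.93 as deposited and -0.18 after quantile normalization. With each replicate centred on the block median, the SD between replicates was 0.24. The shifts with another centring follow from the construction, and no centring alters the gap to tiles of the same level. Quantile normalization is not a centring. With it the gap to tiles of the same level outside the 3 runs was -0.60 and -0.48, against -0.70 and -0.51 without it. Against all tiles of the same level outside the block, the gap for replicate 3 minus 4 was -0.32. The interquartile range became 1.01 when replaced by the SD over tiles, and the neighbour correlation 0.52 with plate medians subtracted. The far edge lay at -5 wells in replicate 2 alone, -11 in replicate 4 alone and -24 with 8 plates searched on each side; the cause was not tested. The comparison of IP chromatin labels gave 0 to 808 block tiles without one replicate; at 808, without replicate 3, 35.2% of all tiles were called. Another 101 values for the block, its extreme plates, edges and replicate differences moved by less than 1 SD, or by less than 1.5 times for counts and replicate differences. Some of these could not move. Allowing tiles with a value in at least 1 replicate added no values, since blank tiles were blank in every replicate. Another centring cancels out of the gap to tiles of the same level. With the slide pair as a random block, 48 block tiles were called above and 1272 below, where 46.5% and 46.3% of all tiles were, at a negative correlation. The alternatives for single plates, named tiles and replicate differences, the search over 8 plates, and the gap to all outside tiles, were added after the data were seen. No paired analysis was possible because the arrays form a single group. Without intensities, the part of dim spots cannot be given.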
